A study of Homo sapiens with 4 samples.

Results

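The DNA replication and G1/S genes described here are a list of 59 human genes that encode G1 and G1/S cyclins, E2F transcription factors and the proteins that license, unwind, copy and repackage DNA. A listed gene was taken as measured where the platform annotation gives its current or older symbol to a probe set of the deposited array table, and the brightest of its probe sets on average stood for it. By this rule 29 of the 59 genes were measured, among 14884 genes in all. The other 30 genes are not analysed here, including all 9 listed polymerase and primase genes, all 3 RPA genes, 5 RFC genes of the clamp loader, all 6 ORC genes and GMNN, E2F4, E2F5, E2F6, LIG1, TK1 and CHAF1A.

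Transcripts were measured on 4 whole-transcript arrays of LS411N-5FU-R, a line derived from the human colon carcinoma line LS411N and resistant to 5-fluorouracil (5-FU), the fluoropyrimidine drug. A pair of arrays came from cells grown in the presence of verticillin A, an epipolythiodioxopiperazine made by fungi, at 50 nM for 3 days, and a pair from cells grown for 3 days without it (0 nM). Both groups carry the same resistance, and the parental line is not among the samples, so no value here compares resistant with sensitive cells. The labels do not state whether arrays within a group stem from different cultures; p-values therefore reflect only the spread among these samples, which may be technical.

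A cell enters S phase when cyclin D and cyclin E kinases free E2F factors from the RB protein, and E2F factors then switch on genes for DNA synthesis. In G1 the origin recognition complex, CDC6 and CDT1 load the MCM2 to MCM7 helicase on DNA, and at the start of S phase CDC7, CDC45 and the GINS complex turn it into an active helicase. PCNA, the sliding clamp, then holds the polymerases on their template.

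Over all probe sets the arrays correlated at r = 0.995 within the verticillin A group and 0.994 within the control group, and at 0.99 to 0.992 between groups, across probe sets that are not independent replicates. Of the markers of the labelled cell type, EPCAM had log2 levels of 10.94 and 10.94 with verticillin A, against 11.09 and 11.13 in control cells, while CDX1 had 4.08 and 4.17 with verticillin A, against 4.16 and 3.96 in control cells. In limma 7 of the 9 measured colonic epithelial markers did not pass, KRT19 rose by 0.44 ± 0.09 and VIL1 fell by 0.62 ± 0.08 (log2 change ± SE). Markers of fibroblasts, leukocytes and endothelium (7 measured) had mean log2 levels from 3.45 to 4.61, and 0 of them passed in limma, with 0 at an unadjusted p under 0.05.

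Verticillin A raised 13 of the 29 measured genes and lowered 0 of them (limma, Benjamini-Hochberg adjusted p under 0.05 over all 14884 genes). At an unadjusted p under 0.05 also 0 of the 29 were lower, against 2185 of all 14884 genes. Over all genes tested 8.65% were called, 3.55% higher and 5.1% lower. The median log2 change, verticillin A minus control, was 0.33 over the 29 genes and -0.01 over all genes tested. In 24 of the 29 genes both verticillin A arrays lay above both control arrays, against 25.7% of all genes. In the other 5 the groups overlapped, so that 0 lay below, against 29.1% of all genes. The 13 genes that rose were PCNA, CCNE1, E2F1, GINS2, MCM10, CDC45, GINS4, FEN1, MCM4, MCM5, E2F7, CDT1 and MCM3, and 9 of them rose by at least 0.5, against 1.63% of all genes called higher by that much. A further 10 genes had an unadjusted p under 0.05 without passing the adjusted threshold, which makes 23 of 29 higher at that level, against 12% of all genes. In a culture measured in bulk, a larger share of cells in S phase and more RNA of these genes per cell cannot be told apart.

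The calls depend on the number of arrays and on the features tested. With 1 array left out, a group rests on a lone array, and limma called fewer genes, both among the 29 and among all genes. The change of PCNA then stayed within 0.81 to 0.92 and that of CCNE1 within 0.76 to 0.82. Adjusted over all 53617 probe sets, named or not, 0 of the 29 passed, with a lowest limma adjusted p of 0.0591. Of all these probe sets 20 were called higher and 29 lower. An unadjusted p under 0.05 was found for 22 of the 29 genes, beside 8805 of the 53617 probe sets. With arrays centred on their medians 17 of the 29 rose, and over all genes the split of calls became 750 higher and 668 lower, against 528 higher and 759 lower in the deposited values.

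**Figure D1:**
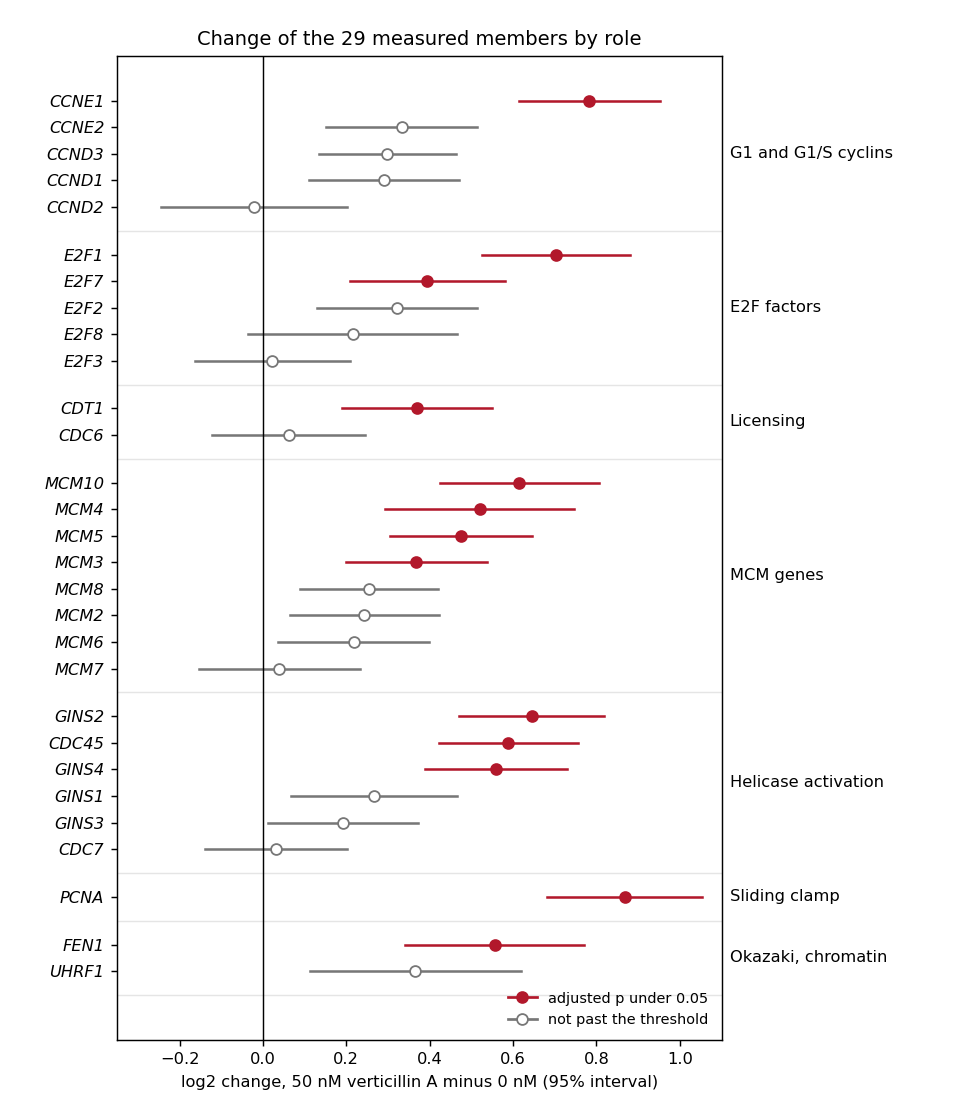
Log2 change of each of the 29 measured genes, 50 nM verticillin A minus 0 nM (x axis), by role, with its 95% interval from limma; filled red points passed an adjusted p of 0.05 and open grey points did not. The 13 filled points lie between 0.37 and 0.87, and the lowest point is CCND2 at -0.02.

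Promoter windows were searched for short words known from cell cycle promoters. RefSeq windows on GRCh38.p14, from 250 bases before to 50 bases after the annotated start, were at hand for 20 of the 29 measured genes. E2F-type words were searched as TTTCGCGC, TTTGGCGC, TTTCCCGC and TTTGCCGC on both strands, and 14 of the 20 windows (70.0%) held at least 1 of them. The share was 3.32% over 1 window for each of 24885 genes of the table and 4.78% over the windows of 8409 protein-coding genes tested on the arrays. The word CCAAT, bound by NF-Y in many cell cycle promoters, stood in 12 of the 20 windows (60.0%). It stood in 36.1% of the windows of the 24885 genes and in 37.1% of those of the 8409 protein-coding genes tested. The CHR-type words TTTGAA and TTCGAA, known from promoters of G2/M genes, stood in 2 of the 20 (10.0%), against 16.9% over the table. A word match describes letters only. The list was chosen by role, and E2F factors switch on genes for DNA synthesis. The share with E2F-type words is therefore not independent of that choice.

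The 250 bases before the start are printed for 3 genes that rose most (PCNA, E2F1 and CCNE1) and for 3 genes of the MCM helicase, of which MCM3 rose and MCM6 and MCM7 did not pass, to show the words and their absence side by side. All are written 5′ to 3′ on the strand of the gene, with E2F-type words of either strand in capitals. They lie on GRCh38.p14 at chr20:5126623-5126872 (minus strand), chr20:33686386-33686635 (minus strand), chr19:29811741-29811990 (plus strand), chr6:52284743-52284992 (minus strand), chr2:135876444-135876693 (minus strand) and chr7:100101398-100101647 (minus strand).
PCNA: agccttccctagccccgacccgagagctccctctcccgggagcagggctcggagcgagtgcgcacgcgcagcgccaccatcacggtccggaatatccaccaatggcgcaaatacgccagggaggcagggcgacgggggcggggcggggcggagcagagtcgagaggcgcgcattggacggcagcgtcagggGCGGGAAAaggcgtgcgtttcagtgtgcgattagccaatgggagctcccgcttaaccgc
E2F1: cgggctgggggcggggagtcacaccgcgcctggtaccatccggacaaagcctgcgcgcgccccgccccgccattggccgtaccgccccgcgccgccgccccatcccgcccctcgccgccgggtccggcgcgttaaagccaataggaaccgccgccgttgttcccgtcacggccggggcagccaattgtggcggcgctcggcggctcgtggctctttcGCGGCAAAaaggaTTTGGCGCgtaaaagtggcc
CCNE1: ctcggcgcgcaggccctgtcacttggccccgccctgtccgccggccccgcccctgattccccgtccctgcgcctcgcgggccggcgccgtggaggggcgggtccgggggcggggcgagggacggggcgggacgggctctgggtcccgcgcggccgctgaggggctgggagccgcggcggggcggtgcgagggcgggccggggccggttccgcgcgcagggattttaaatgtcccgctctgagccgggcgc
MCM3: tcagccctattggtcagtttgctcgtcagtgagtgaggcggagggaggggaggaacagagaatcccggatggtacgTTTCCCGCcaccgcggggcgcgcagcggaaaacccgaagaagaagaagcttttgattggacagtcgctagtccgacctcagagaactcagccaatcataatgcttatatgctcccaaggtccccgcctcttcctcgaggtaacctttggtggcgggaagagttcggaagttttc
MCM6: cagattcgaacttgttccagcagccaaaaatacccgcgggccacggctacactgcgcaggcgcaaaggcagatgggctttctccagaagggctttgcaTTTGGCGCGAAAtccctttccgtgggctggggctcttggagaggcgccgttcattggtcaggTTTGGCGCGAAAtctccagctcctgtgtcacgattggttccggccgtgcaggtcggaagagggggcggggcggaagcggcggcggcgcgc
MCM7: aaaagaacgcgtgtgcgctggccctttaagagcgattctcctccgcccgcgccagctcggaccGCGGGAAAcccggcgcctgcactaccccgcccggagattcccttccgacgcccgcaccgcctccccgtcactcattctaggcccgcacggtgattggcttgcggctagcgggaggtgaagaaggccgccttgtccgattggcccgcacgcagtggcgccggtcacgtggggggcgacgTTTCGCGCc

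In PCNA a word stood from base -59 to -52, counted from the start as base 0, and in E2F1 words stood at -33 to -26 and -20 to -13. The CCNE1 window held 0 E2F-type words and 0 CCAAT words. In MCM6 a word on each strand overlapped at both places in capitals, so that its 4 matches form 2 runs. In MCM3 a further word, TTTCGCGC from -4 to 3, crosses the start and is outside the printed bases. The last base of the MCM7 word at -9 to -2 is also the first base of a CCAAT.

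Genes with and without a word stood on both sides of the threshold. Of the 10 genes with a window that rose, 5 held an E2F-type word, and of the 10 with a window that did not pass, 9 held one. The median log2 change was 0.26 for the 14 genes with a word and 0.57 for the 6 without (CCNE1, CDC45, CDC7, E2F7, FEN1 and MCM10). These are descriptions over few genes, with no test.

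**Figure D2:**
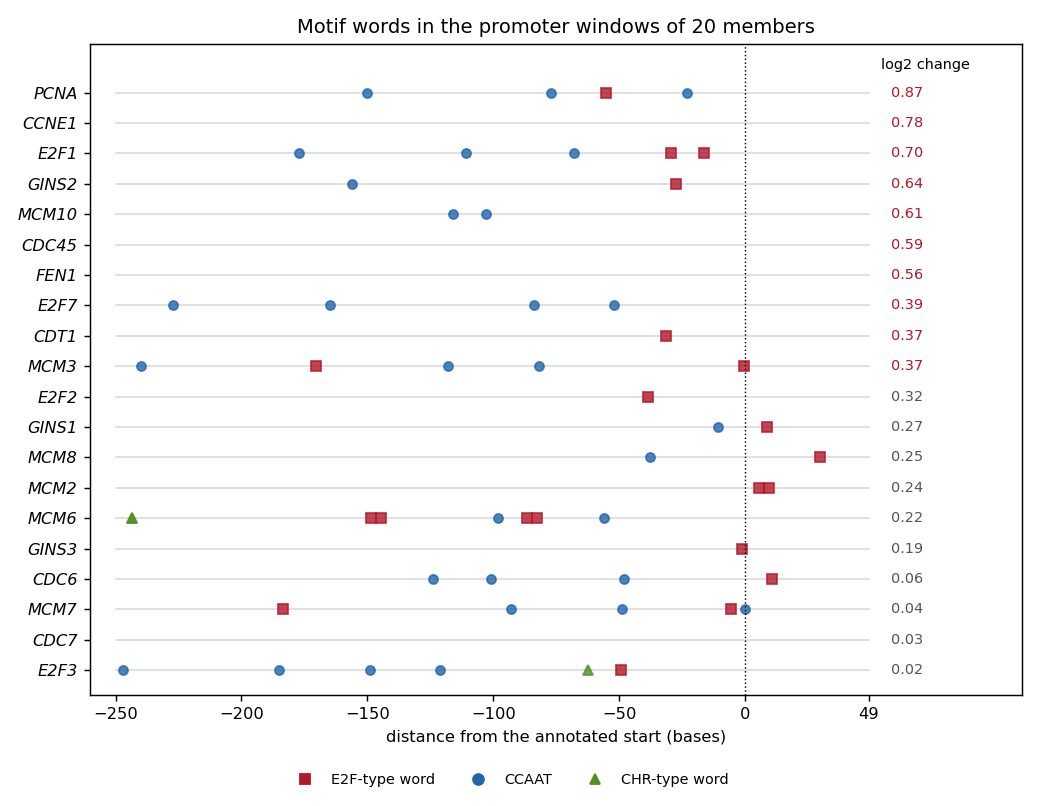
Position of motif words in the promoter windows of 20 measured genes, ordered by their log2 change (right; red where the gene rose, grey where it did not pass), with distance from the annotated start in bases on the x axis. Red squares are E2F-type words (14 genes), blue circles CCAAT (12 genes) and green triangles CHR-type words (2 genes); CCNE1, CDC45, FEN1 and CDC7 hold none.

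Among the 5 cyclin genes, all measured, CCNE1 rose and the others did not pass. CCNE1 encodes cyclin E1, which activates CDK2 at the G1/S boundary. It had log2 levels of 8.92 and 8.96 with verticillin A, against 8.14 and 8.18 in control cells. The groups lie far apart beside the gaps within each, and the change was 0.78 ± 0.07 (log2 change ± SE, 1.72-fold, limma adjusted p = 0.00909), the 60th highest of all genes tested. CCNE2, the paralog cyclin E2, had log2 levels of 8.97 and 8.92 with verticillin A, against 8.57 and 8.65 in control cells. Its groups do not overlap either, but its change of 0.33 ± 0.07 missed the threshold (limma adjusted p = 0.0518). The D-type cyclins, which pair with CDK4 and CDK6, showed smaller differences. CCND3 had a log2 change of 0.30 (limma adjusted p = 0.0535) and CCND1 one of 0.29 (limma adjusted p = 0.0697), both with no overlap of the groups. CCND2 averaged a log2 level of 3.95 ± 0.14 with verticillin A, against 3.97 ± 0.04 in control cells (SD, n = 2 each). Its groups overlapped, its mean lay at the 22.9th percentile of all gene means, and its change of -0.02 had a 95% interval from -0.24 to 0.20. CCNE2, CCND3 and CCND1 are among the genes called after median centring (a shift of 0.0388 in all log2 changes).

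Of the 5 measured E2F genes, E2F1 and E2F7 rose. E2F1 is an activator and E2F7 an atypical repressor that E2F1 itself is known to induce. E2F1 had log2 levels of 8.51 and 8.47 with verticillin A, against 7.75 and 7.83 in control cells, a 1.63-fold rise (limma adjusted p = 0.0113). For E2F7 the log2 levels were 9.83 and 9.80 with verticillin A, against 9.37 and 9.48 in control cells (change 0.39 ± 0.07, adjusted p = 0.0373 by limma). The other activators did not pass. E2F2 had log2 levels of 7.05 and 7.07 with verticillin A, against 6.68 and 6.81 in control cells, and did not pass (change 0.32 ± 0.08, adjusted p = 0.0628 by limma). E2F3 had 8.27 and 8.35 with verticillin A, against 8.33 and 8.24 in control cells, with overlapping groups, and the 95% interval of its change was -0.16 to 0.21, beside 0.53 to 0.88 for E2F1. E2F8, the other atypical repressor, had a change of 0.22 with the widest spread between control arrays of the E2F genes, 8.49 and 8.73 (limma adjusted p = 0.251).

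Of the licensing genes CDT1 and CDC6 were measured. CDT1, which brings the MCM helicase to origins, had log2 levels of 8.14 and 8.05 with verticillin A, against 7.73 and 7.72 in control cells, and rose 1.29-fold (limma adjusted p = 0.0399). CDC6, its partner in loading, had 10.29 and 10.31 with verticillin A, against 10.18 and 10.29 in control cells. These groups overlapped, and the change of CDC6 was 0.06 with a 95% interval from -0.12 to 0.25.

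All 8 listed MCM genes were measured and 4 rose. MCM10, which is no subunit of the hexamer and acts in starting replication, had log2 levels of 9.17 and 9.30 with verticillin A, against 8.63 and 8.61 in control cells. This was the largest change of the MCM genes, 0.61 ± 0.08 (1.53-fold, limma adjusted p = 0.0167). The 6 hexamer subunits work together in equal number, and 3 of their transcripts passed. MCM4 had log2 levels of 10.21 and 10.35 with verticillin A, against 9.68 and 9.83 in control cells, a change of 0.52 ± 0.09 (limma adjusted p = 0.0323). MCM5 had 8.94 and 8.97 with verticillin A, against 8.45 and 8.51 in control cells, and rose by 0.47 ± 0.07 (limma adjusted p = 0.0218). MCM3 had 10.96 and 11.02 with verticillin A, against 10.62 and 10.62 in control cells, and rose by 0.37 ± 0.07 (limma adjusted p = 0.0359). In these 3 genes the groups stand apart, with the widest gaps within a group in MCM4. MCM2 had 8.71 and 8.73 with verticillin A, against 8.43 and 8.52 in control cells (change 0.24, limma adjusted p = 0.0984). MCM6 had 9.59 and 9.68 with verticillin A, against 9.44 and 9.39 in control cells (change 0.22, limma adjusted p = 0.13). Neither passed, and in neither did the groups overlap. MCM7 had 10.46 and 10.48 with verticillin A, against 10.36 and 10.50 in control cells. Both verticillin A values of MCM7 lie between the control values, and the 95% interval of its change was -0.15 to 0.23, beside 0.29 to 0.75 for MCM4 and 0.30 to 0.65 for MCM5. Whether the changes of these subunits differ from each other was not tested, nor was it for E2F1 and E2F3. MCM8, which acts with MCM9 in recombination, had a change of 0.25 (limma adjusted p = 0.076).

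Of the 6 helicase activation genes, all measured, 3 rose. CDC45, a subunit of the active helicase, had log2 levels of 8.49 and 8.45 with verticillin A, against 7.87 and 7.89 in control cells (1.50-fold, limma adjusted p = 0.0138). GINS2 had 10.01 and 9.93 with verticillin A, against 9.33 and 9.33 in control cells, a 1.56-fold rise (limma adjusted p = 0.0125). GINS4 had 7.29 and 7.34 with verticillin A, against 6.77 and 6.74 in control cells (1.47-fold, limma adjusted p = 0.0162). For each of these 3 genes the groups are apart by several times the gap within them. GINS4 has another, dimmer probe set, whose mean was 4.51 with verticillin A, against 4.76 in control cells, with a change of the opposite sign, -0.24. Averaged over both probe sets, the change of GINS4 was 0.16 and did not pass (limma adjusted p = 0.218). The remaining subunits of the GINS complex, GINS1 and GINS3, had log2 changes of 0.27 and 0.19 and did not pass (limma adjusted p = 0.104 and 0.165), with no overlap of the groups. CDC7, the kinase that fires origins, had 8.58 and 8.54 with verticillin A, against 8.51 and 8.55 in control cells, a change of 0.03 with a 95% interval from -0.14 to 0.20.

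PCNA had the largest change of the 29 genes. Its log2 levels were 10.82 and 10.70 with verticillin A, against 9.90 and 9.89 in control cells. The lower verticillin A array thus stood well clear of both control arrays, and the change was 0.87 ± 0.07 (1.83-fold, limma adjusted p = 0.00909), the 38th highest of 14884 genes. FEN1, the flap endonuclease that trims Okazaki fragments while bound to PCNA, had 8.44 and 8.31 with verticillin A, against 7.76 and 7.89 in control cells (1.47-fold, limma adjusted p = 0.0255). UHRF1, which guides maintenance DNA methylation behind the fork and binds trimethylated H3K9, had 8.92 and 8.97 with verticillin A, against 8.46 and 8.70 in control cells. Its groups did not overlap, but the control arrays differed widely, and its change of 0.37 ± 0.10 did not pass (limma adjusted p = 0.0865).

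**Figure D3:**
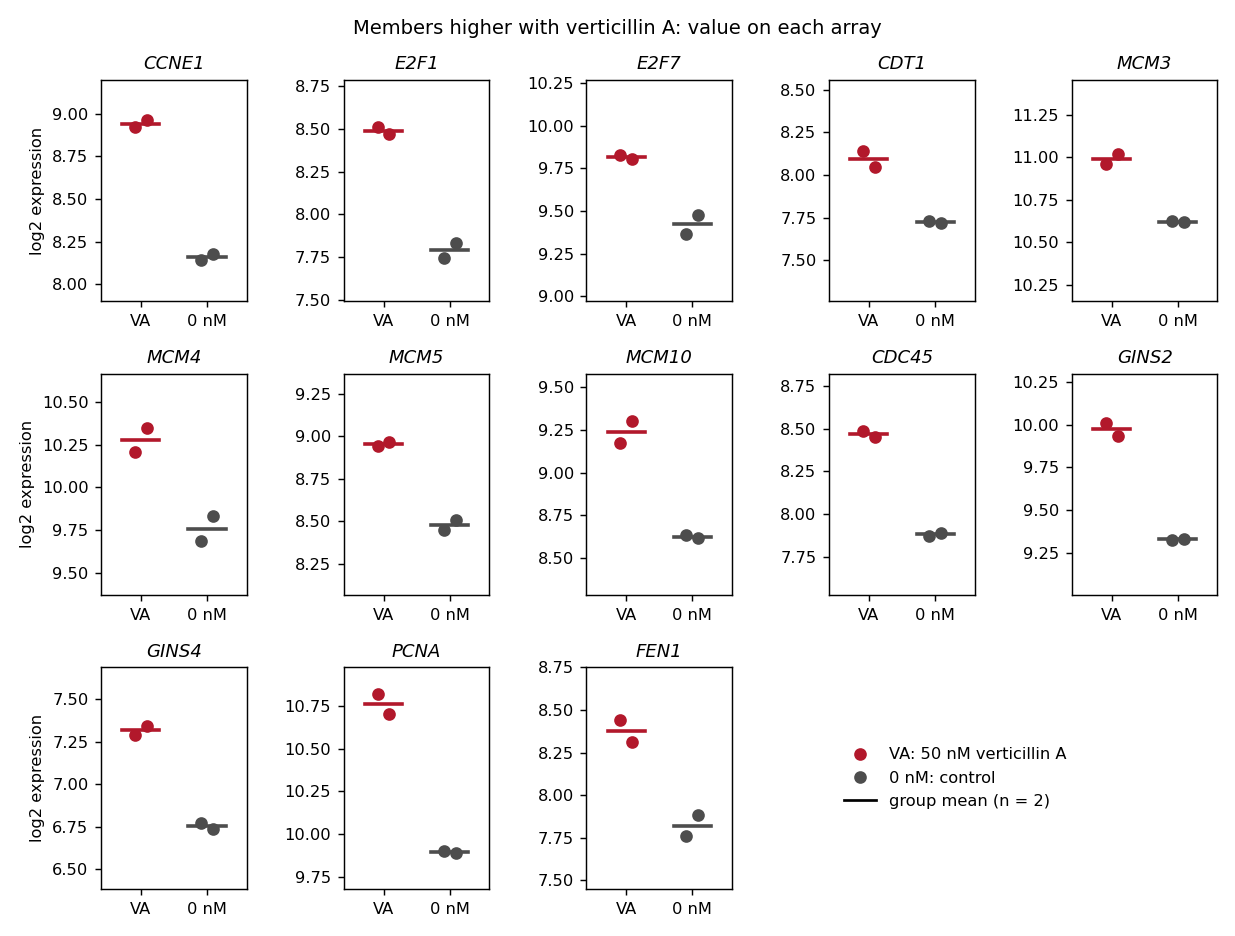
Log2 expression on each array (points) with the mean of each group (lines, n = 2) for the 13 genes that rose, 50 nM verticillin A (VA, red) left of 0 nM (grey); each panel spans the same log2 range. In every panel both red points lie above both grey points, for example in PCNA at 10.82 and 10.70 with verticillin A, against 9.90 and 9.89 in control cells.

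Other genes of the pathway were read from 4 further lists with 83 genes, of which 55 were measured. Of these 17 rose and 2 fell in limma, with a median log2 change of 0.18, and 26 were higher and 5 lower at an unadjusted p under 0.05. Over all 14884 genes 1785 were higher and 2185 lower at that level, and at the adjusted threshold 3.55% were called higher and 5.1% lower. Fork and origin firing genes held 7 that rose and 0 that fell of 18 measured (median 0.21, 0 lower at an unadjusted p under 0.05). TICRR, which helps CDC45 onto origins, had log2 levels of 10.49 and 10.49 with verticillin A, against 9.69 and 9.85 in control cells. It rose by 0.72 ± 0.08, CLSPN, the checkpoint mediator claspin, by 0.69 ± 0.07, DBF4B, a regulatory subunit of CDC7, by 0.64 ± 0.09 and DSCC1, of an alternative clamp loader, by 0.57 ± 0.07. Averaged over its probe sets, the change of CLSPN was smaller, 0.40, and still passed (limma adjusted p = 0.0288).

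The list of RB pathway genes, CDKs and CDK inhibitors had calls both ways, with 6 higher and 2 lower of 17 measured (median 0.13). Over all genes tested 3.55% were called higher and 5.1% lower. At an unadjusted p under 0.05 the counts were 7 higher and 4 lower, beside 1785 higher and 2185 lower of all 14884 genes. The further 2 lower genes, named after their values were seen, were RB1, the retinoblastoma protein, at -0.17 ± 0.07 and RBL2, its relative p130, at -0.19 ± 0.07 (limma adjusted p = 0.175 and 0.151). RBL1, another relative of RB1 named after its values were seen, was higher at 0.26 ± 0.07 (limma adjusted p = 0.0792). RB1, RBL2 and RBL1 did not pass the adjusted threshold. CDC25A, the phosphatase that activates CDK2, rose by 0.56 ± 0.09, MYBL2, an S phase MYB factor, by 0.56 ± 0.08, CCNA2, cyclin A2, by 0.52 ± 0.07 and LIN52, a subunit of the MuvB core of the DREAM complex, by 0.49 ± 0.08. The DP proteins, with which E2F factors bind DNA as dimers, went opposite ways. TFDP1, outside the rule for named genes and chosen after its values were seen, had log2 levels of 8.52 and 8.54 with verticillin A, against 8.12 and 8.12 in control cells (change 0.41 ± 0.07, adjusted p = 0.0267 by limma). TFDP2 had 9.97 and 10.00 with verticillin A, against 10.39 and 10.40 in control cells, and fell by 0.41 on the log2 scale (adjusted p = 0.0282 by limma). CDKN2A, whose products include the CDK4 and CDK6 inhibitor p16, had 5.77 and 5.70 with verticillin A, against 6.13 and 6.29 in control cells, and fell by 0.48 (adjusted p = 0.0338 by limma). CDKN1A and CDKN1B are not analysed here.

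In nucleotide supply 3 of 10 measured genes rose and 0 fell (median 0.20, 0 lower at an unadjusted p under 0.05). They were RRM2 and RRM1, a small and the large subunit of ribonucleotide reductase, at 0.51 ± 0.07 and 0.31 ± 0.07, and TYMS, thymidylate synthase, at 0.48 ± 0.07. RRM2B, the alternative small subunit and outside the rule for named genes, had a change of 0.17 ± 0.09 and did not pass (limma adjusted p = 0.286). Among 10 measured genes of replication-coupled chromatin assembly ASF1B, a histone H3 and H4 chaperone, rose by 0.35 ± 0.07 and 0 fell, with 1 lower at an unadjusted p under 0.05 (median 0.15). Of 25 G2/M and mitosis genes, 16 rose and 0 fell, with 0 lower at an unadjusted p under 0.05, and their median log2 change of 0.40 stands beside the 0.33 of the replication and G1/S genes. Beside 2185 lower of all 14884 genes at an unadjusted p under 0.05, a count of 0 or 1 among 10 genes says little. At the adjusted threshold, 3.55% of all genes tested were called higher and 5.1% lower. Whether the lists differ was not tested.

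**Figure D4:**
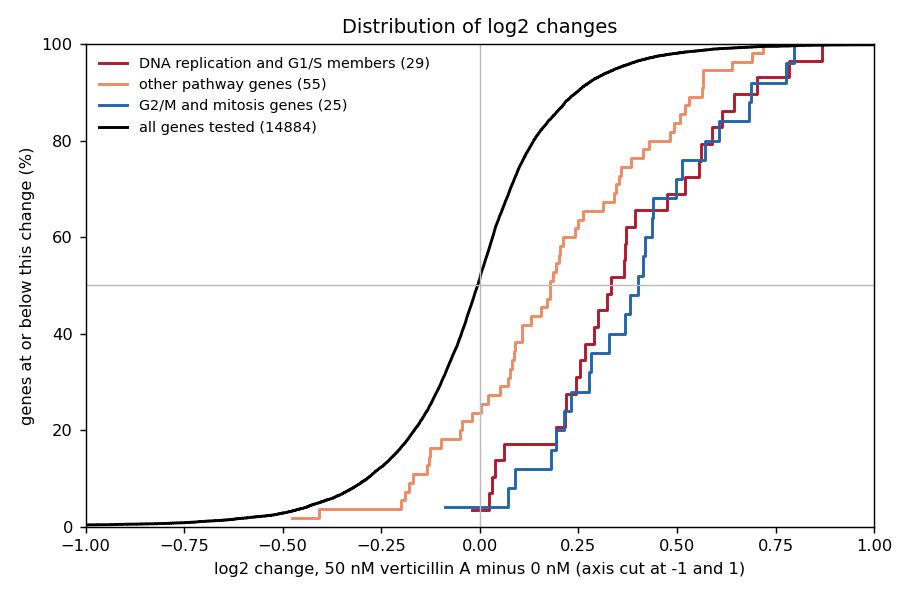
Cumulative share of genes (y axis, percent) at or below a log2 change, 50 nM verticillin A minus 0 nM (x axis, cut at -1 and 1), for the 29 DNA replication and G1/S genes (red), 55 other pathway genes (orange), 25 G2/M and mitosis genes (blue) and all 14884 genes tested (black). The curves cross the middle of the y axis at medians of 0.33, 0.18, 0.40 and -0.01.

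**Figure D5:**
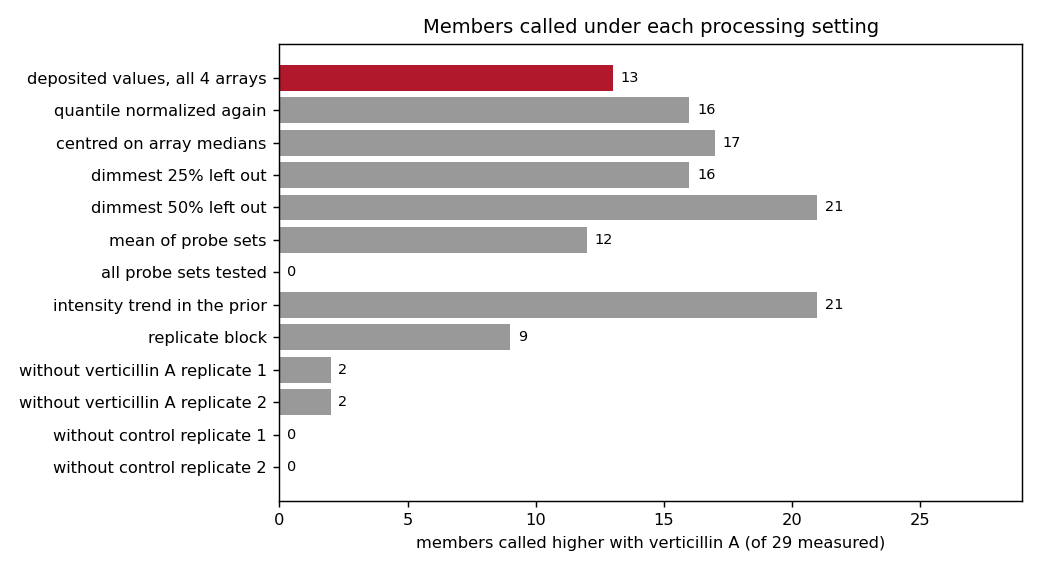
Number of the 29 measured genes called higher with verticillin A (x axis, from 0) under the deposited values (red, 13) and under 12 processing alternatives (grey). The bars run from 0, with all probe sets tested or a control array left out, to 21, with an intensity trend or without the dimmest 50% of genes, where 27 of the 29 were tested.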

How the data were processed

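Total RNA (250 ng, per the labels' protocols) was turned into biotinylated cDNA for Affymetrix arrays. The authors deposited 1 log2 value per probe set and array; the submitters' processing notes name GCRMA, with its version, genome build and filters not given in the sources used here. The log2 scale was read from the range of the deposited values, 2.6 to 14.47. GCRMA by default makes array distributions alike, so a change in total RNA per cell would not show. No detection calls were used, so a low value may be background, and changes of dim genes may be understated. Precision is limited by the number of arrays, 2 per group.

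The platform annotation names 16098 of 53617 probe sets, with 1 symbol each and 0 with several; all matched RefSeq (GRCh38.p14) by gene identifier, giving 14884 genes. limma 3.58.1 (R 4.3.3; lmFit and eBayes, constant prior, no filter) fitted treatment over 4 arrays, with 2 residual and 3.43 prior degrees of freedom. p-values are two-sided and adjusted by Benjamini-Hochberg over the 14884 genes, with a threshold of 0.05. The fit was tested on simulated data. The members and lists were chosen with earlier results of these data known, so lists are described by counts and medians without a test. Named in the text are all measured members, up to 4 called genes of largest change per further list, and called genes that move against their list. RB1, RBL1, RBL2, TFDP1, RRM2B and the cell type markers are named outside this rule. The alternatives were renormalization (quantile, median centring), filters on dim genes, averaged or all probe sets, an intensity trend, the replicate number as a block and each array left out. Promoter words were searched with Python 3.11.15 in 1 window per gene, at its annotated start.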

Additional observations from a re-analysis of the deposited data

How the results depend on the processing

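The 13 calls kept their sign under all 12 alternatives, but most alternatives could not change it. Filters on dim genes, all probe sets, the intensity trend and the replicate block leave each log2 change as it was. In the 13 genes the groups did not overlap, so leaving out an array cannot reverse a sign. Of the replication and G1/S genes tested, 0 was called lower under any alternative in limma. The filters on dim genes left 28 of the 29 genes in the fit without the dimmest 25% (CCND2 was not tested) and 27 without the dimmest 50% (CCND2 and CCND3 were not tested); the other alternatives tested all 29. Signs changed under an alternative for 3 uncalled genes, CCND2, E2F3 and MCM7. Over the alternatives the change of PCNA ranged from 0.81 to 0.92 and that of CCNE1 from 0.76 to 0.82, with limma adjusted p up to 0.0759 for both. Counts of replication and G1/S genes called higher, and of all genes higher and lower, were 21 (of 27 tested), 1070 and 1329 without the dimmest 50% of genes, 21, 1067 and 1361 with an intensity trend in the prior, and 0, 20 and 29 with all probe sets tested. Testing all probe sets adjusts over 53617 features and estimates the prior on them. Leaving out an array gave 0 to 2 of the 29, 0 to 52 genes higher and 0 to 105 lower, on 1 residual degree of freedom and with the lone array of a group assumed to vary like the other group. The median change of the 29 was 0.37 with median centring and 0.29 to 0.36 with an array left out.

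The labels number the arrays of each group alike and do not say whether equal numbers mark a pairing. Same-numbered arrays did not deviate together across genes as a whole (r = 0.0124 between the 2 within-group differences). This cannot decide whether they were paired, as a pairing that affects few genes would not show. With the replicate block limma called 9 of the 29, losing E2F7, CDT1, MCM3 and FEN1, and 228 genes higher and 364 lower in all. The cause of these changes was not tested.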
